A study of Homo sapiens with 18 samples.

Results

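Of the 18 libraries of the series, 6 carry the comparison described here, the 3 from GFP low cells at 48 h and the 3 from GFP low cells at 24 h. They were chosen by GFP level and time alone, and every gene that passed a filter on low counts was tested. All libraries were made from total RNA of Raji, a human B cell line established from a Burkitt lymphoma, with genotype Smarca4+/+ in the labels, and ribosomal RNA was removed before sequencing. The series studies breakdown of SMARCA4, also called BRG1, through an auxin-inducible degron, a tag that makes a protein degradable on addition of the plant hormone auxin. The sources used here do not state what GFP reports or how high and low cells were separated. They also do not state which cells received auxin or when the clock of 24 and 48 h started. Column names of the unnumbered library set read GFPBRG1, and those of the numbered sets read GFP alone. What the longer name means is not stated. The 3 libraries of GFP high cells at 48 h and the 3 at 24 h serve as the comparison for what changed with time in the other fraction. Since the labels do not state that replicate libraries stem from different cultures, a p-value here speaks of the spread among these libraries alone, which may be technical.

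SMARCA4 is an ATPase of the BAF (SWI/SNF) complexes, which use ATP to slide or evict nucleosomes and so open enhancers and promoters. Burkitt lymphoma resembles the germinal centre B cell, which alternates between a dark zone programme of division and antibody gene mutation and a light zone programme in which B cell receptor, CD40 and NF-kB signals are received. Genes for the protein synthesis machinery, for replication and for these zone programmes are among the lists described below. Those lists were chosen with earlier results of these data known.

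SMARCA4 transcript was present in all 6 libraries. Its CPM (read counts scaled to a common library size with TMM factors) was 580, 575 and 614 in the unnumbered, first and second library set at 24 h, and 473, 472 and 501 at 48 h. The groups did not overlap, and the fall was 0.29 on the log2 scale (SE 0.03, edgeR adjusted p = 2.49e-08), or 0.13 after the trend with exon length described below was removed. A degron acts on protein, so this transcript does not check which fraction had lost SMARCA4. The same order of sets is used for all values by library below.

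The 6 libraries held 28650906 to 51690031 counts in genes, and the 18 libraries 27257876 to 55419458. On the first principal component of log2 CPM the 24 h GFP low libraries lay at 33.5 to 38.1, the 48 h GFP low libraries at 2.31 to 7.04, and the 15 libraries outside GFP low 24 h at -21.0 to 7.04. Mitochondrial genes took 3.48% to 3.64% of counts in GFP low cells at 24 h and 2.87% to 2.95% at 48 h; the same shares in GFP high cells were 4.27% to 4.62% and 3.62% to 3.78%. Summed B cell markers, among them MS4A1, CD79B and PAX5, were at 3315 to 3416 CPM at 24 h and 3176 to 3262 CPM at 48 h, so B cell markers were abundant in every library.

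From 24 to 48 h GFP low cells raised genes for ribosomal proteins, the nuclear part of the respiratory chain, replication histones and the dark zone, and lowered light zone and NF-kB genes, interferon response genes and large chromatin regulators. Of 16474 genes tested, 4241 (25.7%) rose and 4132 (25.1%) fell at a Benjamini-Hochberg adjusted p under 0.05 in edgeR's quasi-likelihood test. The median absolute change of the called genes was 0.34 on the log2 scale, and 192 genes rose and 170 fell by 2-fold or more. After the trend with exon length was removed, 102 rose and 232 fell by that much. Replicates were close, with a common biological coefficient of variation of 3.49%, so small differences pass this test. With 50.8% of all genes called, a share of a gene list that changed has to be read against 25.7% rising, 25.1% falling and a median log2 fold change of 0.02 over all genes tested. For lists of protein-coding genes the background is higher, since 3614 of 11270 such genes rose and 3729 fell. It also varies with exon length. Of genes of 8000 to 16000 bp that averaged 1 CPM or more, 18% rose and 55.7% fell.

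**Figure D1:**
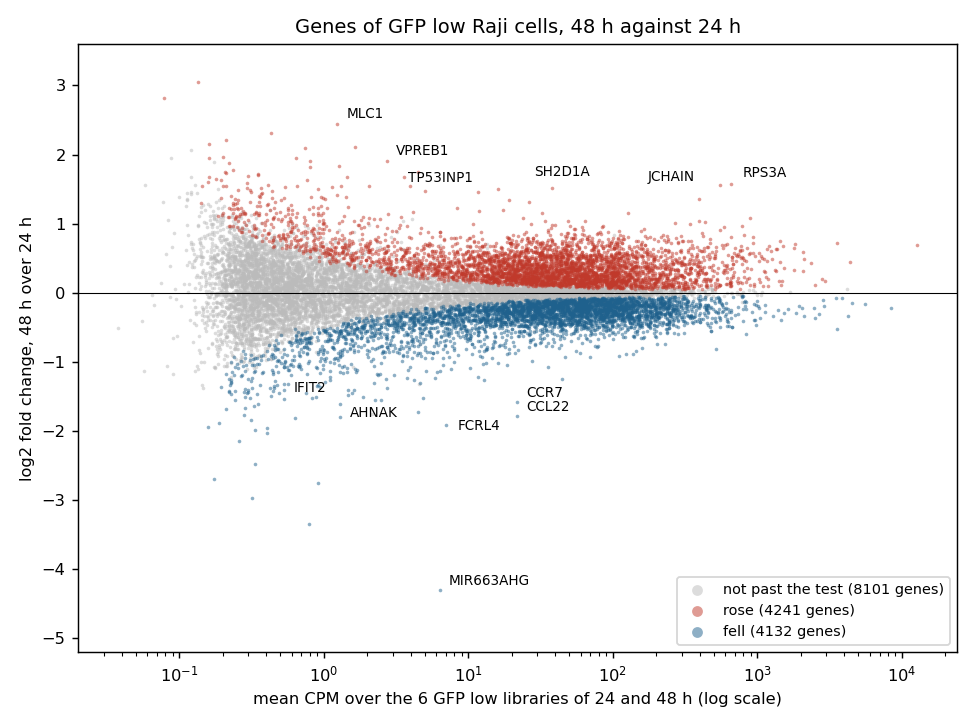
Each point is 1 of 16474 tested genes, with its mean CPM over the 6 GFP low libraries on a log axis and its log2 fold change from 24 to 48 h. Red points rose (4241), blue points fell (4132) and grey points did not pass the test; most called genes lie within 1 log2 unit, and MIR663AHG, at -4.30, rests on 1 library.

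JCHAIN, which encodes the joining chain of polymeric IgM and IgA, was among the most abundant genes with a large rise. It stood at 288, 286 and 266 CPM at 24 h and at 851, 828 and 802 CPM at 48 h. Lack of overlap between the times was a condition for naming a gene by size of change. The log2 fold change of JCHAIN was 1.56 (SE 0.04, adjusted p = 9.75e-19, edgeR). GFP high cells held 699 ± 26.1 CPM at 24 h and 762 ± 16 CPM at 48 h (SD, n = 3), a log2 fold change of 0.13. SH2D1A, the adaptor SAP of SLAM family receptors, went from 20.9, 20.2 and 18.6 CPM to 57.6, 55.2 and 56.5 CPM, a log2 fold change of 1.51 (SE 0.04). In GFP high cells SH2D1A was at 77.3 ± 2.60 and 80.8 ± 1.39 CPM at the same times (SD, n = 3).

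VPREB1, part of the surrogate light chain of the pre-B cell receptor, rose by 1.91 from a low level, from 1.05, 1.25 and 1.13 CPM to 4.72, 4.06 and 4.12 CPM. TP53INP1, a p53 target that acts in autophagy and cell death, rose by 1.5, from 8.60, 8.72 and 7.86 CPM to 24.2, 24.0 and 23.0 CPM. GMFG, an actin regulator of blood cells, rose by 1.46, and WASF3 and NCKAP1, members of the WAVE actin complex, by 1.47 and 1.54. The other genes among the 12 named for the largest rise were MLC1 (2.45), RPS3A (1.57), GPD2 (1.54), HBD (1.54) and SH3D19 (1.53). SH3D19 averaged only 0.595 CPM at 24 h and 1.68 CPM at 48 h. Its span overlaps that of the far more abundant RPS3A on the opposite strand, and strandedness of the counts is not stated. Whether reads counted for SH3D19 stem from RPS3A was not tested. GPD2 is the mitochondrial glycerol-3-phosphate dehydrogenase and HBD the delta chain of haemoglobin.

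Genes of B cell activation and traffic were among those named for the largest falls. CCL22, a chemokine that attracts CCR4-bearing T cells, stood at 34.2, 32.5 and 34.0 CPM at 24 h and at 10.01, 9.68 and 9.496 CPM at 48 h. Its log2 fold change was -1.79 (SE 0.06, adjusted p = 5.2e-16, edgeR). CCR7, the receptor that guides lymphocytes towards T cell zones, went from 33.9, 31.1 and 33.2 CPM to 10.9, 10.1 and 11.7 CPM, a log2 fold change of -1.58 (SE 0.09). FCRL4, an inhibitory Fc receptor-like protein of memory B cells, went from 12.1, 10.7 and 10.6 CPM to 2.46, 3.27 and 3.15 CPM (-1.91, SE 0.15). For all 3 genes each 48 h library was lower than each 24 h library, which the rule for naming them required. IFIT2, an interferon-induced antiviral gene, fell by 1.48 on the log2 scale, and AHNAK, a giant scaffold protein, by 1.73. MST1, KCP, CARMIL3, APOBR, CLIC2 and CFAP43 had log2 fold changes of -1.61, -1.55, -1.55, -1.52, -1.51 and -1.41.

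The numerically largest fall rests on a single library. MIR663AHG, the host gene of a microRNA, was at 33.2 CPM in the unnumbered library at 24 h, at 1.57 and 1.42 CPM in sets 1 and 2, and at 0.78, 0.79 and 0.31 CPM at 48 h. Its log2 fold change was -4.30 (SE 0.86) with the unnumbered 24 h library and -1.29 without it. Of 5 ribosomal RNA genes tested, 3 fell and none rose, with a median log2 fold change of -1.33; whether they share a source with MIR663AHG was not tested.

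**Figure D2:**
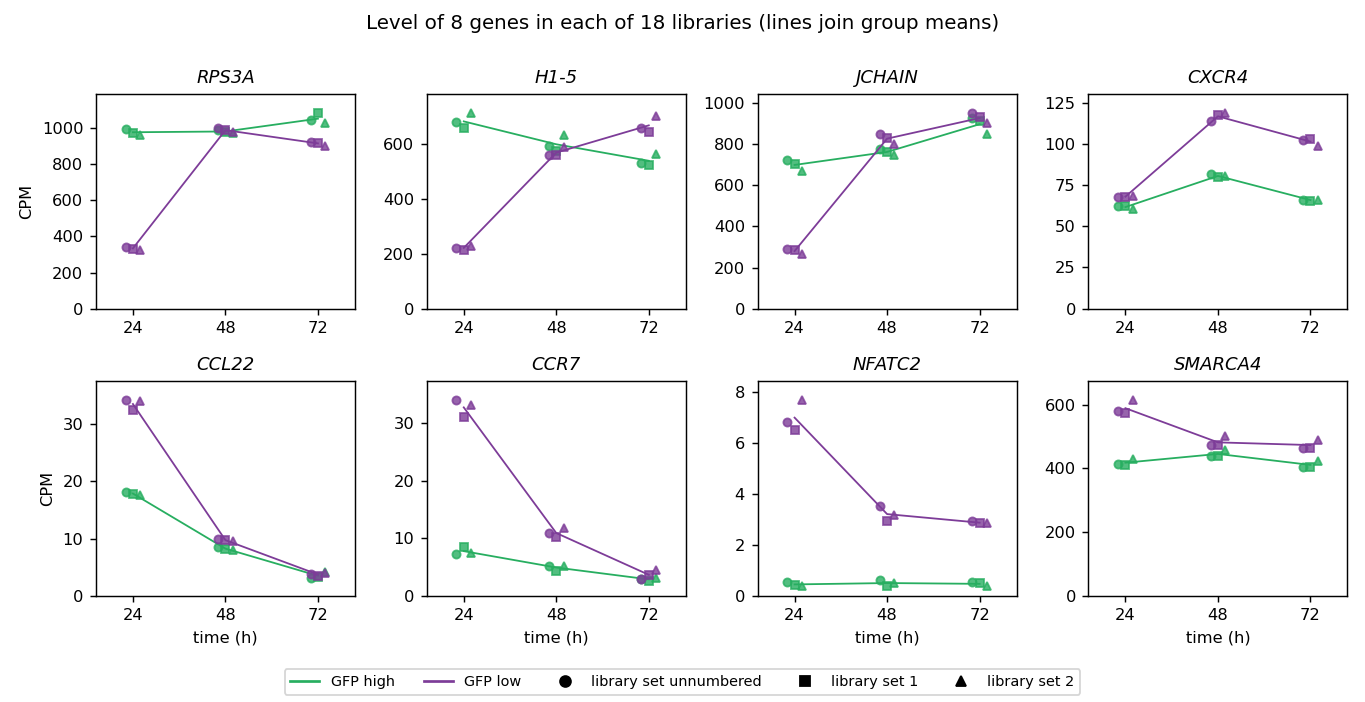
CPM of 8 genes in the 18 libraries by time, with GFP high in green and GFP low in purple; symbols mark the library set and lines join group means. RPS3A, H1-5 and JCHAIN rose steeply in GFP low cells between 24 and 48 h while the GFP high lines changed little, and CCL22 and CCR7 fell in both fractions.

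The rise was most uniform in the genes for cytosolic ribosomal proteins, the structural proteins of the translating ribosome. Of 79 tested, 78 rose and none fell, with a median log2 fold change of 0.54. RPS3A had the largest change, from 343, 331 and 327 CPM to 1003, 987 and 976 CPM, a log2 fold change of 1.57 (SE 0.02, adjusted p = 1.8e-22, edgeR). In GFP high cells RPS3A was at 977 ± 16.8 and 981 ± 6.52 CPM (SD, n = 3). RPS18 rose by 1.08, RPSA, the laminin receptor of the small subunit, by 0.96, and RPS7 by 0.90. Ribosomal protein genes have many processed pseudogenes that can take part of their reads, and 145 of 1213 processed pseudogenes tested rose and 21 fell, with a median of 0.35. With the length trend removed 75 ribosomal protein genes rose and none fell, with a median of 0.42.

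Translation factors followed with 28 of 38 higher and 4 lower, at a median of 0.25. EEF1A1, which brings aminoacyl-tRNA to the ribosome, rose from 9849, 9835 and 9766 CPM to 15696, 15910 and 15819 CPM, a log2 fold change of 0.69 (SE 0.01). EEF1B2, its nucleotide exchange factor, rose by 1.03. Subunits of one complex went opposite ways, with EIF3I higher by 0.61 and EIF3A at -0.40. EIF5B (-0.50) and the scaffold EIF4G1 (-0.27, or -0.15 with the length trend removed) also fell. Nucleolar genes of ribosome assembly were mixed, with 17 of 40 higher, 13 lower and a median of 0.05. There NPM1 rose by 0.58 and the snoRNP protein NHP2 by 0.90, while the polymerase I factor UBTF changed by -0.36 and nucleolin, NCL, by -0.22 (-0.09 with the length trend removed).

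Respiratory chain genes moved one way when encoded in the nucleus and the other way when encoded in mitochondria. Of 56 nuclear genes 51 rose and 1 fell (median 0.54). NDUFA4 went from 83.4, 76.8 and 78.8 CPM to 139, 140 and 134 CPM (0.79, SE 0.03) and ATP5PB, of the ATP synthase stalk, from 181, 176 and 173 CPM to 311, 302 and 298 CPM (0.78, SE 0.03). ATP5F1A, the alpha subunit of the ATP synthase, rose by 0.60. SDHA, the flavoprotein of complex II, was the gene that fell, at -0.13, and it did not pass the test once the length trend was removed (-0.01). Its call was also lost without the filter on low counts (-0.12) and without set 1 (-0.10) or set 2 (-0.11) at 48 h. Of 13 genes encoded in mitochondrial DNA none rose and 12 fell, with a median of -0.23. MT-CYB, for cytochrome b, went from 2917, 2783 and 2806 CPM to 2228, 2163 and 2212 CPM, a change of -0.37 that became -0.64 with the length trend removed. MT-CO1 and MT-ND4 changed by -0.22 and -0.33, or by -0.48 and -0.60 with the length trend removed. With the library sets paired as a block MT-CO1 did not pass the test at the same size of change (-0.22, adjusted p = 0.127, edgeR), and 1 of the 13 genes rose and 11 fell. The fall of these genes had a counterpart in GFP high cells, where 12 of 13 fell with a median of -0.29, and the changes of MT-CYB, MT-CO1 and MT-ND4 did not differ between the fractions beyond the test (difference -0.08, -0.04 and -0.02, adjusted p = 0.16, 0.47 and 0.81, edgeR).

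Genes of central metabolism and protein quality rose in part. Lactate dehydrogenase, LDHA, went from 689, 689 and 674 CPM to 1205, 1200 and 1176 CPM (0.80, SE 0.02), and the glycolytic enzymes PGK1 and ENO1 rose by 0.66 and 0.48. Over the glycolysis and hypoxia list 10 of 27 rose and 5 fell (median 0.05). Of 24 genes of cholesterol synthesis and its control 14 rose and 4 fell (median 0.23). FDPS and FDFT1, at the branch towards squalene, rose by 0.67 and 0.55. Of 24 genes of the integrated stress response, a programme of amino acid supply and translation control, 17 rose and 3 fell (median 0.32). The serine pathway enzymes PSAT1 and PSPH rose by 0.89 and 0.60 and the folate enzyme MTHFD2 by 0.49. The cystine transporter SLC7A11 and the phosphatase subunit PPP1R15A, which belong to the same list, changed by -0.50 and -0.45. Chaperones rose in 20 of 25 cases and fell in 2, with HSPA8 higher by 0.72 and the chaperonin subunit CCT4 by 0.66. Proteasome subunits rose in 23 of 32 cases and fell in 3, with PSMB3 at 0.84 and PSMD2 at -0.20.

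Replication-dependent histones, which package DNA as it is copied and whose messages end in a stem-loop in place of a poly(A) tail, rose together in GFP low cells. Of 48 tested 44 rose and none fell, with a median of 0.52. The linker histone H1-5 had the largest change, from 222, 213 and 230 CPM to 561, 559 and 588 CPM, a log2 fold change of 1.36 (SE 0.04, adjusted p = 6.89e-17, edgeR). H1-3 went from 15.2, 15.4 and 14.9 CPM to 38.2, 35.3 and 39.5 CPM (1.32, SE 0.05). H1-2 and H1-4 rose by 0.75 each, or by 0.47 each with the length trend removed. With that trend removed 37 histone genes rose and none fell, with a median of 0.27; their median exon length was 519 bp.

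The upstream sequence of the linker histones with the largest rise is shown because it carries the elements by which histone promoters are known. In the RefSeq promoter table (GRCh38.p14) 49 of the 54 listed histone genes were matched, with 52 entries, and the 250 bases before the start of transcription were searched on both strands. The CCAAT box (CCAAT) occurred in 46 of 52 entries (88.5%, against 32.0% of all 35116 entries), the TATA box (TATAAA) in 33 (63.5%, against 10.7%) and the H1 box (AAACACA) in 5 (9.62%, against 4.82%). The last 130 bases before the start are printed in the direction of transcription with these letters in capitals, where ATTGG is CCAAT on the other strand. H1-5 lies at chr6:27867589-27867718 and H1-3 at chr6:26234988-26235117, both on the minus strand.
H1-5: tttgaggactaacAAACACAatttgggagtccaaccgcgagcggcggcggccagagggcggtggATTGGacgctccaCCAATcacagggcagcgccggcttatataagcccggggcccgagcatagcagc
H1-3: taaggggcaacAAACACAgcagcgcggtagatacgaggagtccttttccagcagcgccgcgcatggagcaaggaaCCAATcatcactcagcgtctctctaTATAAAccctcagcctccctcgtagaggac
In both, the H1 box begins 117 or 119 bases and a CCAAT box 53 or 55 bases before the start. These are matches of letters, and binding at them was not measured here.

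Genes of S phase and of mitosis changed less evenly than histones. Of 58 genes of S phase and replication 41 rose and 3 fell (median 0.25), and 5 fell with the sets as a block. The sliding clamp PCNA went from 173, 177 and 168 CPM to 311, 303 and 300 CPM (0.82, SE 0.02). GINS2, of the replicative helicase, rose by 0.97 and the ribonucleotide reductase subunit RRM2 by 0.73, while the checkpoint adaptor CLSPN was at -0.19 and did not pass the test without the length trend (-0.05). Of 59 genes of G2 and mitosis 32 rose and 11 fell (median 0.15). BIRC5, or survivin, went from 81.1, 78.9 and 78.2 CPM to 178, 175 and 179 CPM (1.16, SE 0.02, adjusted p = 7.47e-20, edgeR), and cyclin B1, CCNB1, rose by 0.95. CKS1B and CKS2, small proteins bound to cyclin-dependent kinases, rose by 0.94 and 1.04. Other genes of the same list fell. MKI67, the Ki-67 antigen, went from 1213, 1147 and 1163 CPM to 938, 899 and 902 CPM (-0.36, SE 0.02, or -0.20 with the length trend removed). CENPF and KIF20B changed by -0.28 and -0.37, the former by -0.13 with the length trend removed. Among regulators of G1, CCND3 and its partner CDK4 rose by 0.79 and 0.75, and CDK6 was at -0.25 (-0.10 with the length trend removed).

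CKS2, which was chosen for display after its values were seen, and MKI67 are shown side by side because their promoters hold the same pair of elements and their transcripts changed in opposite directions. The pair is the CCAAT box and TTTGAA, the letters known as the cell cycle homology region. Of 59 listed genes of G2 and mitosis 51 were matched, with 63 entries; 47 held CCAAT (74.6%) and 30 held TTTGAA (47.6%, against 13.3% of all entries), on either strand. CKS2 lies at chr9:89311065-89311194 on the plus strand and MKI67 at chr10:128126424-128126553 on the minus strand, and the last 130 bases before the start are printed.
CKS2: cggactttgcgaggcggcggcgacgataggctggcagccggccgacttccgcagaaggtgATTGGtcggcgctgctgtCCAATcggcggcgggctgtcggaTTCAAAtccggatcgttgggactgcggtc
MKI67: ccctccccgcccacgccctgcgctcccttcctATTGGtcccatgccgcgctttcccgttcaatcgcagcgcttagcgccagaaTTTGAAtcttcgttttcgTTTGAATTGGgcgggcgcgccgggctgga
Both held a match 29 bases before the start, TTCAAA being TTTGAA read on the other strand. In MKI67 a CCAAT match, read as ATTGG, overlaps that element. A match shows only that the letters are there.

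The 2 germinal centre zone programmes changed in opposite directions. Of 20 dark zone markers 17 rose and 1 fell (median 0.54). CXCR4, the receptor that holds cells in the dark zone, went from 67.7, 67.8 and 68.4 CPM to 114, 118 and 119 CPM (0.78, SE 0.03). Of 23 light zone markers none rose and 21 fell, with a median of -0.45 that became -0.55 with the length trend removed, when 21 again fell; with the sets as a block 1 rose. TRAF1, a signal adaptor of CD40, went from 139, 144 and 148 CPM to 75.6, 77.1 and 76.9 CPM (-0.91, SE 0.04). CD83, a surface marker of light zone cells, was at -0.35, or -0.54 with the length trend removed. Summed dark zone markers were at 3554 to 3660 CPM at 24 h and 4472 to 4566 CPM at 48 h. Summed light zone markers were at 4426 to 4625 CPM and 3516 to 3684 CPM, and neither sum overlapped between the times. Single genes weigh heavily in these sums. In the light zone sum CD74 held 1993 to 2109 CPM at 24 h and 1636 to 1732.5 CPM at 48 h. In the dark zone sum TUBA1B held 565 to 585 CPM and 1005 to 1060 CPM. Several dark zone markers are also cell cycle genes, such as CCNB1, and MKI67 was the dark zone marker that fell. In bulk RNA, fewer cells of a state and less RNA per cell cannot be told apart.

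NF-kB targets overlap with the light zone list, since CD40 signals to NF-kB there. Of 34 NF-kB targets 1 rose and 23 fell (median -0.29). NFKB2, itself a subunit made under NF-kB control, went from 206, 195 and 206 CPM to 116, 113 and 120 CPM (-0.80, SE 0.03). Lymphotoxin alpha, LTA, went from 36.9, 36.6 and 37.1 CPM to 18.3, 17.4 and 19.8 CPM (-0.99, SE 0.05). The inhibitor TNFAIP3, or A20, went from 184, 181 and 188 CPM to 101, 107 and 101 CPM (-0.84, SE 0.04). With the sets as a block 3 targets rose. The target that rose without the block was TNFAIP8, by 0.15, or by 0.26 with the length trend removed.

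The upstream region of TNFAIP3 is shown because it holds 2 NF-kB motifs close to the start; the gene was chosen for display after its values were seen. A pair of spellings was searched on both strands, GGG, any 2 bases and TTTCC, or GGG, any 2 bases and TTCCC. One or the other occurred in 14 of 48 entries of 28 matched NF-kB targets (29.2%) and in 9 of 27 entries of 17 matched light zone markers (33.3%), against 3.52% of all entries. The 130 bases at chr6:137867129-137867258, plus strand, are printed with the matches, which are read on the other strand, in capitals.
TNFAIP3: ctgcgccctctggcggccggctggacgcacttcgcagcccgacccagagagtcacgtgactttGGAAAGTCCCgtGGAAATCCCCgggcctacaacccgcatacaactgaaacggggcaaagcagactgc
The matches begin 67 and 55 bases before the start. Whether NF-kB occupied them in these cells was not measured here.

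Transcripts of B cell receptor signalling fell more often than they rose, with 20 of 30 lower, 5 higher and a median of -0.23 (19 lower and 3 higher with the length trend removed). The phosphatase PTPN6, or SHP-1, went from 76.4, 75.3 and 77.6 CPM to 41.2, 40.3 and 43.4 CPM (-0.87, SE 0.04). The lipid phosphatase INPP5D, the phosphatase PTPRC, or CD45, and the kinase SYK changed by -0.58, -0.50 and -0.47, so that activators and inhibitors of the pathway were both lower. CD79B, a signalling chain of the receptor, rose by 0.46, or by 0.25 with the length trend removed. Of 19 genes of calcium and NFAT signalling 5 rose and 9 fell (median -0.16). With the length trend removed 6 rose and 6 fell (median -0.02). NFATC2, a calcineurin-dependent transcription factor, went from 6.79, 6.49 and 7.66 CPM to 3.51, 2.95 and 3.15 CPM (-1.13, SE 0.12, adjusted p = 4.64e-08, edgeR). In GFP high cells NFATC2 was at 0.442 ± 0.0884 CPM at 24 h and 0.495 ± 0.109 CPM at 48 h (SD, n = 3). Of 24 immediate early genes, which answer receptor signals within minutes, 4 rose and 7 fell (3 and 13 with the length trend removed, and 7 rose with the sets as a block). EGR1 changed by -1.02, ZFP36L1, a decay factor for short-lived messages, by -0.89 and KLF6 by -0.58.

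Transcription factors of B cell identity were split. Of 26 tested 8 rose and 13 fell (median -0.11). ID3, an inhibitor of E proteins that is often mutated in Burkitt lymphoma, went from 11.4, 9.87 and 11.1 CPM to 25.9, 26.3 and 29.8 CPM (1.34, SE 0.07). MEF2C, PAX5 and IKZF3 changed by -0.46, -0.41 and -0.34, or by -0.30, -0.27 and -0.19 with the length trend removed. In the plasma cell list 11 of 16 rose and 3 fell (median 0.30). JCHAIN and XBP1 (0.73), the latter the secretory regulator of the unfolded protein response, were among those that rose. The 3 that fell were IRF4 (-1.07), SLAMF7 (-0.89) and TNFRSF13B (-0.88), a plasma cell regulator and a pair of surface receptors. Among surface markers of B cells, MS4A1, or CD20, was at -0.47, MME, or CD10, rose by 0.63 and CD38 by 0.31.

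Migration and adhesion genes showed no common direction, with 9 of 24 higher and 10 lower. Beside CCR7, the integrins ITGB7 and ITGAL changed by -0.69 and -0.61. RGS13, which dampens chemokine receptor signals in germinal centre cells, rose by 0.73, and S1PR2, which confines cells to the follicle, by 0.47. In the BCL2 family 8 of 15 rose and 6 fell. The BH3-only genes BIK and PMAIP1, or NOXA, rose by 1.18 and 0.47, the latter by 0.27 with the length trend removed, and BMF was at -0.63. Of 26 p53 targets 11 rose and 6 fell; MDM2, the ubiquitin ligase that limits p53, rose by 0.46.

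Interferon response genes fell in 17 of 33 tested cases and rose in 2, with a median of -0.44, and 11 of the 44 listed genes did not pass the filter on low counts. The RNA sensor IFIH1, or MDA5, went from 46.6, 46.5 and 44.5 CPM to 30.4, 30.6 and 30.7 CPM (-0.59, SE 0.04). ISG20, an exonuclease, rose by 0.24. The upstream region of IFIH1 is shown as an example of an interferon-stimulated element close to the start. The search letters were GAAA, any 2 bases and GAAA, on both strands, found in 22 of 47 entries of 34 matched genes (46.8%, against 3.02% of all entries). The 130 bases lie at chr2:162318685-162318814 on the minus strand.
IFIH1: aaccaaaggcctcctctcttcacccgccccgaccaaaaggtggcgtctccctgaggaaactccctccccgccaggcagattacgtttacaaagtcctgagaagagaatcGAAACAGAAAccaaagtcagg
The match begins 21 bases before the start. Activity of this element was not measured here.

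Antigen presentation was mixed. Of 18 class I genes 3 rose and 10 fell (median -0.17), and of 19 class II genes 4 rose and 8 fell (median -0.02). TAPBP, which loads peptide on class I, went from 236, 231.5 and 243 CPM to 151.5, 149.6 and 161 CPM (-0.62, SE 0.04), and the immunoproteasome subunit PSMB8 rose by 0.56. CIITA, the master regulator of class II, was at -0.53, while its target HLA-DRA rose by 0.45, or by 0.18 with the length trend removed. MARCHF1, a ligase that removes class II from the surface, fell by 1.38 on the log2 scale.

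Transcripts of chromatin regulators were lower at 48 h than at 24 h in most cases. Of 40 histone and DNA modifiers 3 rose and 33 fell (median -0.29), and with the length trend removed 7 rose and 27 fell (median -0.16). The acetyltransferase EP300 went from 281, 277 and 287 CPM to 204, 204 and 210 CPM (-0.45, SE 0.02, or -0.30 with the length trend removed). The methyltransferase EZH1 went from 77.4, 77.2 and 77.8 CPM to 54.7, 55.1 and 55.8 CPM (-0.49, SE 0.03). SETD2 and KMT2C, which methylate histone H3, were at -0.41 and -0.33 (-0.26 and -0.17 with the length trend removed), and DNMT3A, at a mean of 1.48 CPM, was at -1.41. Of 30 remodellers outside BAF 7 rose and 20 fell (median -0.26); with the length trend removed the counts were 8 and 16. CHD2, CHD8 and BPTF, all large remodellers, changed by -0.60, -0.38 and -0.40, the last 2 by -0.21 and -0.24 with the length trend removed. The small histone chaperone RBBP7 rose by 0.48.

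Of 29 BAF subunits tested 6 rose and 15 fell (median -0.14), or 7 and 12 with a median of -0.03 once the length trend was removed. The second ATPase, SMARCA2, was at -0.43 (-0.26 with the length trend removed). Among core subunits SMARCC2 and SMARCC1 were at -0.37 and -0.14 (-0.23 and -0.05 with the length trend removed), while SMARCB1 and SMARCD2 rose by 0.19 and 0.22 (0.35 and 0.13). SMARCD1 was at -0.08. Its call was lost without set 2 or the unnumbered set at 24 h or without set 1 or the unnumbered set at 48 h (-0.07 to -0.04). It was also lost without the filter on low counts (-0.06). SMARCD3 was at -0.02 and SMARCE1 at -0.03, and neither passed the test. Among subunits that define a BAF class, ARID1A and ARID1B were at -0.42 and -0.39 (-0.25 and -0.23 with the length trend removed). PBRM1, ARID2 and BRD7 of the PBAF class were at -0.22, -0.18 and -0.17; with the length trend removed they were at -0.08, -0.03 and -0.05, and ARID2 and BRD7 no longer passed. BICRAL and BICRA of the non-canonical class were at -0.50 and -0.31, and its member BRD9 at -0.06 did not pass, but did with the sets as a block (-0.07, adjusted p = 0.0426, edgeR). PHF10 (-0.07), DPF1 (-0.11), DPF2 (0.06), DPF3 (-0.19) and SS18 (0.02) did not pass either. Of these, PHF10 passed with the block (-0.07, adjusted p = 0.0104, edgeR), and DPF2 (0.18) and SS18 (0.07) passed with the length trend removed. The actin-like subunit ACTL6A had the largest rise, 0.55, and ACTB was at -0.16. BCL7B, BCL7C and BCL7A rose by 0.39, 0.29 and 0.08, the last 2 not with some libraries left out, SS18L1 was at -0.19 and BCL11A at -0.15 (0.01 with the length trend removed).

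**Figure D3:**
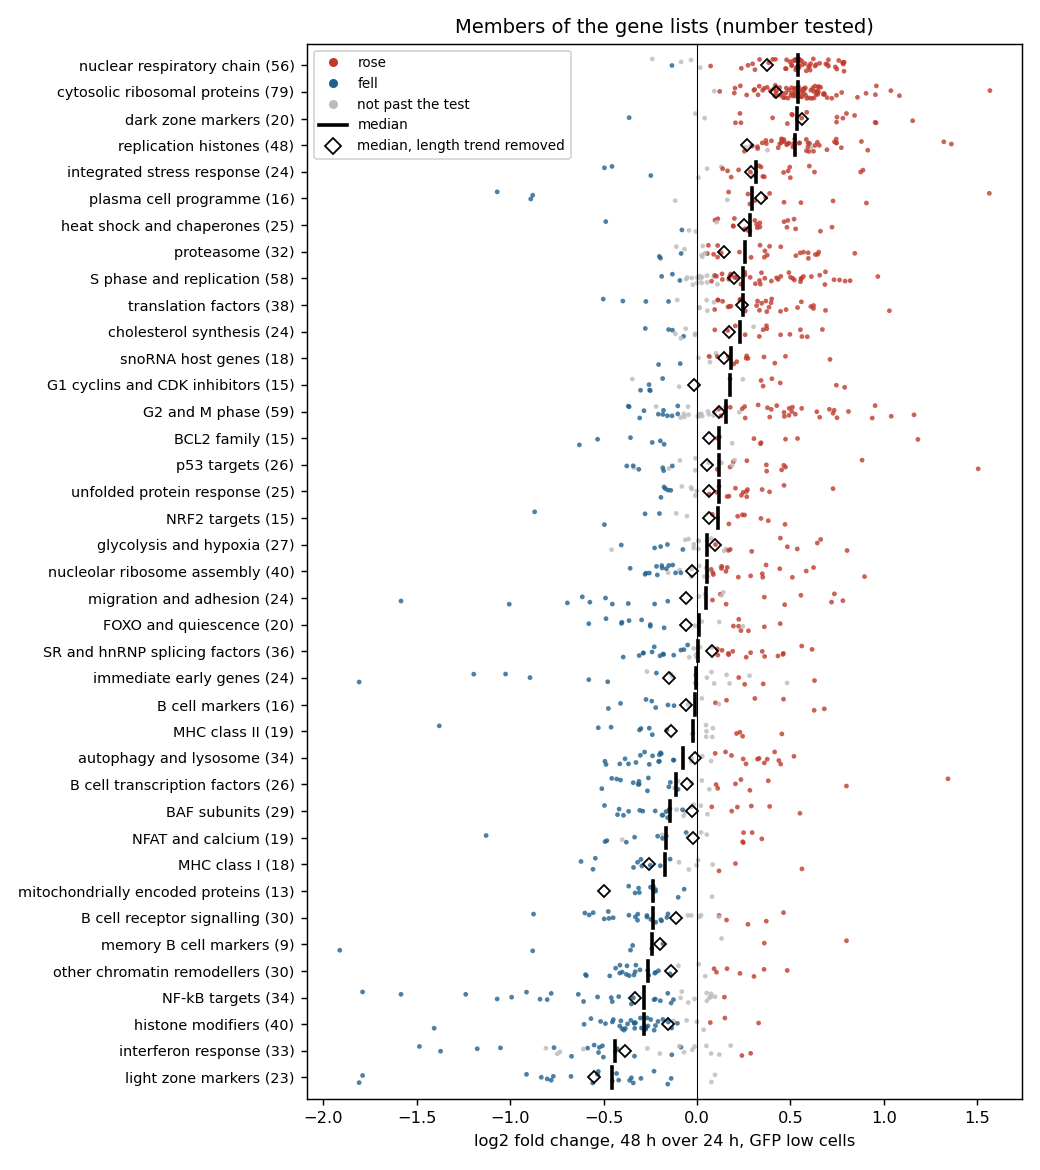
Each point is a tested member of a gene list with at least 9 tested members, placed by its log2 fold change from 24 to 48 h in GFP low cells; bars mark the list's median and open diamonds the median with the length trend removed. Respiratory chain, ribosomal protein, dark zone and histone genes lie to the right, at medians of 0.52 to 0.54, and light zone genes farthest to the left at -0.45.

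The change depended on the length of a gene's exons. Over the 12184 genes that averaged 1 CPM or more, Spearman's rho between summed exon length and log2 fold change was -0.387 in GFP low cells, and it was -0.370, -0.377 and -0.371 within sets 1, 2 and unnumbered. The genes share libraries and are not independent, so this is a description. The 742 genes of up to 1000 bp had a median log2 fold change of 0.27, and the 1033 genes of 1000 to 2000 bp one of 0.26, of which 49.3% rose and 9% fell. The 2385 genes of 8000 to 16000 bp had a median of -0.16, with 18% higher and 55.7% lower, and the 402 longer genes a median of -0.19. In GFP high cells the trend ran the other way over the same times, with a rho of 0.184 and medians from -0.05 in the shortest to 0.07 in the longest genes.

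A length trend can arise from RNA or library differences as well as from regulation, and which applies was not tested. When a smooth trend with length was taken out of the counts, 3964 genes (24.1%) rose and 3933 (23.9%) fell. The balance of large changes moved, since 102 rose and 232 fell by 2-fold or more, against 192 and 170 before. Of the 8373 genes called before, 6551 were called in the same direction, 43 in the opposite one and 1779 were not called. The lists above that rose or fell as a block did so in the same direction with and without the trend, with smaller medians for histones, the respiratory chain and chromatin regulators and larger ones for light zone and mitochondrial DNA genes.

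**Figure D4:**
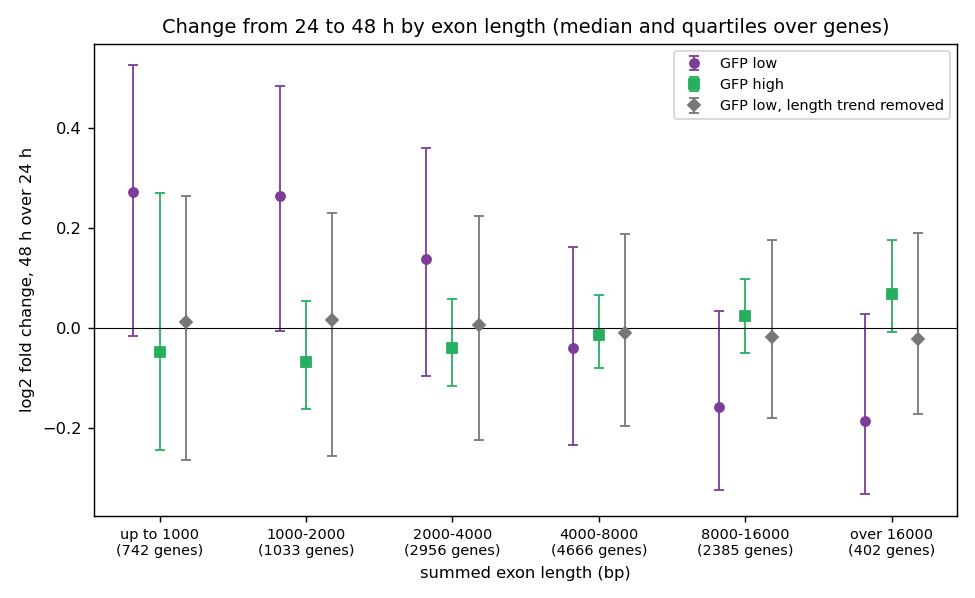
Median log2 fold change from 24 to 48 h, with quartiles over genes as bars, in 6 classes of summed exon length. GFP low cells go from 0.27 in the shortest to -0.19 in the longest class, GFP high cells from -0.05 to 0.07, and the GFP low medians with the trend removed lie between -0.02 and 0.02.

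Other gene classes added little. MALAT1, an abundant nuclear noncoding RNA, went from 4314, 4203 and 4064 CPM to 3001, 2940 and 2843 CPM (-0.52, SE 0.02), while GFP high cells held 3174 ± 71.6 and 3431 ± 84.3 CPM (SD, n = 3). Of 872 long intergenic RNAs 134 rose and 78 fell, and of 127 small nucleolar RNAs 15 rose and 7 fell; the shares are below those of all genes, at low counts.

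The change with time in GFP low cells was then compared with that in GFP high cells, which asks whether a gene moved more in one fraction than in the other. In GFP high cells 1745 genes (10.6%) rose and 1643 (9.97%) fell from 24 to 48 h. The difference between the fractions passed the test for 7159 genes (43.5%). In GFP low relative to GFP high cells 3636 (22.1% of all tested) changed upward and 3523 (21.4%) downward. By 2-fold or more, 232 differed upward and 237 downward. With the length trend removed 3410 genes differed upward and 3350 downward, of which 106 and 458 by 2-fold or more. The list counts of the difference below are without that removal. The groups of the fractions are separate libraries, and no library enters both changes. Libraries of the same set still deviated together from their group means across the fractions. Between GFP high and GFP low libraries the correlations were 0.11, 0.29 and 0.22 at 24 h and 0.11, 0.29 and 0.24 at 48 h.

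Most histones, ribosomal proteins and nuclear respiratory chain genes changed differently in the fractions. In GFP high cells 1 ribosomal protein gene rose and 62 fell (median -0.12), and the difference favoured GFP low cells for 78 of 79. For the respiratory chain none of 56 rose and 30 fell in GFP high cells, and 51 differed upward and 2 downward. Histones fell in GFP high cells, with 44 of 48 lower and a median of -0.67, so that 44 differed upward with a median difference of 1.25. H3C8 was at 57.7 ± 2.93 and 106 ± 4.43 CPM in GFP low cells and at 136 ± 3.93 and 76.0 ± 3.41 CPM in GFP high cells at 24 and 48 h (SD, n = 3). H2BC11 was at 73.9 ± 1.74 and 124 ± 3.52 CPM in GFP low cells, and at 161 ± 5.77 and 81.8 ± 0.840 CPM in GFP high cells (SD, n = 3). The 2 fractions thus moved in opposite directions and their order on both genes was inverted between 24 and 48 h.

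Chromatin regulators also differed. Of 40 modifiers 32 changed downward in GFP low relative to GFP high cells and 2 upward, and 14 rose and 2 fell in GFP high cells. Their median exon length was 11860.5 bp, and the length trend ran in opposite directions in the fractions. How many would differ with that trend removed was not counted here. The difference was -0.55 for EP300 and -0.66 for EZH1. Among the genes named, AHNAK had the largest downward difference, at -2.50 (SE 0.22); it went from 6.91 ± 0.858 to 2.10 ± 0.244 CPM in GFP low cells and from 1.49 ± 0.316 to 2.47 ± 0.0200 CPM in GFP high cells (SD, n = 3).

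The median changes of the zone lists had the same sign in both fractions and were larger in GFP low cells. Dark zone markers had medians of 0.54 in GFP low and 0.13 in GFP high cells, and light zone markers -0.45 and -0.25. MKI67 of the dark zone list moved in opposite directions. In GFP high cells it went from 979, 937 and 929 CPM to 1081, 1043 and 1049 CPM. CCL22, a light zone marker, changed by -1.12 in GFP high cells, a difference of -0.67. CCR7, which is in neither zone list, changed by -0.65 there, a difference of -0.93. CD83 fell farther in GFP high cells, at -0.48 there, a difference of 0.13 in the other direction. Over the lists, 13 of 20 dark zone genes differed upward and 2 downward, 13 of 23 light zone genes downward and 2 upward, and 14 of 34 NF-kB targets downward and 5 upward. For NF-kB targets the medians of the fractions were close, at -0.29 and -0.30.

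**Figure D5:**
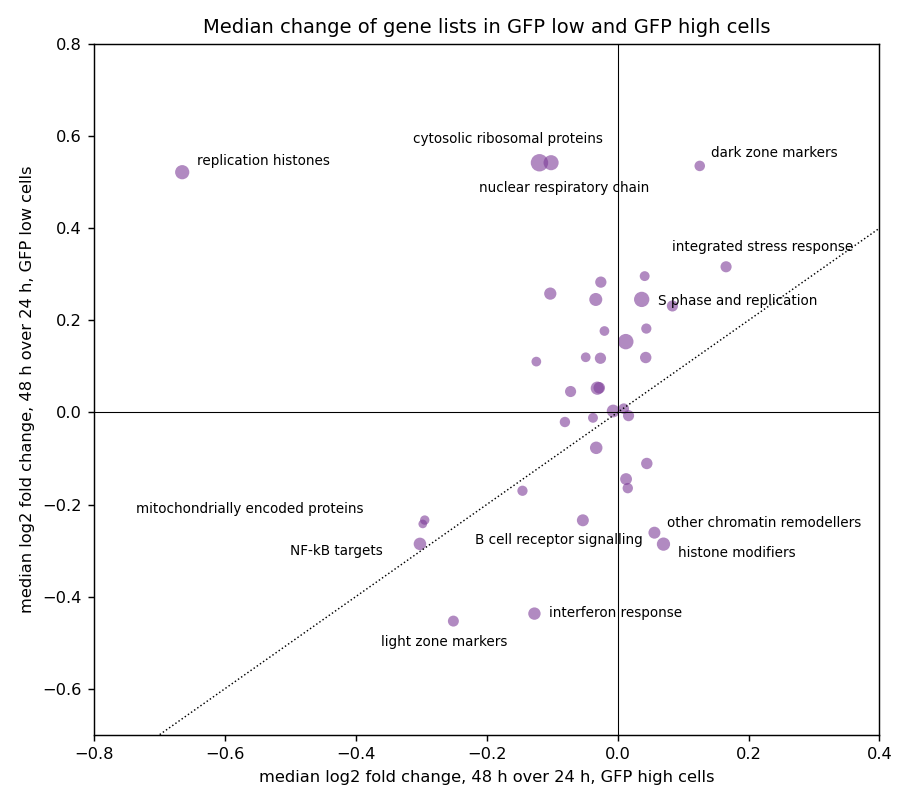
Median log2 fold change from 24 to 48 h of each gene list in GFP high cells (horizontal) and GFP low cells (vertical); point area grows with the number of genes tested, and the dotted line marks equal change. Histones lie at -0.67 and 0.52, NF-kB targets near the line, and ribosomal protein genes far above it at -0.12 and 0.54.

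Markers of other cell types stayed at low levels in the GFP low libraries. Summed T cell markers were at 27 to 30.0 CPM at 24 h and 41.5 to 45.5 CPM at 48 h; 10 of 15 were below 1 CPM in all 6 libraries, and CD8A, CD2 and CD5 were at 0 counts. Of 8 tested 5 rose, among them LCK (0.80) and TRBC2 (0.64, or 0.36 with the length trend removed). Summed erythroid markers were at 8.09 to 9.93 and 13.4 to 14 CPM, made up of globin genes with HBG2 first, while HBA1, HBA2, ALAS2 and GATA1 were among those at 0. All 4 tested rose, HBD by 1.54, HBB by 1.19, HBG1 by 1.97 and HBG2 by 0.37, the last not with the length trend removed (0.09). Summed myeloid markers were at 3.74 to 4.64 and 2.26 to 3.02 CPM, with S100A8 and FCGR3A at 0. Summed epithelial, kidney and fibroblast markers were at 12.8 to 15.6 and 7.01 to 8.07 CPM, with KRT18, COL1A2 and COL3A1 at 0, and their 2 tested members, COL1A1 (-1.13) and VIM (-0.70), fell. The part of these cell types in the changes above was not tested.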

How the data were processed

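The authors deposited raw counts per gene, in whole numbers without normalization, as 1 table of 18 libraries with exon lengths and coordinates in the layout of featureCounts, per the file headers. Tools named, without a role, are R 4.2.1, Subread with featureCounts, STAR and FastQC, with build hg38, per the submitters' processing notes; annotation, strandedness and multimapping are not stated in those sources. Column names give the group and library set, not the sample.

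The table holds 60710 lines, of which 3 hold no complete gene. edgeR 4.0.16 in R 4.3.3 fitted the counts (filterByExpr, TMM, quasi-likelihood F tests on 6 group means, 12 residual degrees of freedom, 2-sided, Benjamini-Hochberg over 16474 genes). Each SE is the size of the log2 fold change divided by the root of its F. CPM are TMM-scaled. The length trend was removed with a lowess curve (span 0.3) on exon length, used as an offset. Scripts were tested on simulated data.

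Libraries of the same set deviated together from their group means (correlations 0.15, 0.26 and 0.30 for the 3 pairs of the comparison), so the column names pair them. The 12 genes with the largest change in each direction were named (mean of at least 1 CPM, no clone, LOC, LINC, antisense or pseudogene name, no overlap, same direction in the 3 sets), 6 in each direction for the difference between fractions, and up to 4 list members in each direction by adjusted p. Not all are printed. The comparison, 44 gene lists and rules were chosen with earlier results of these data known. Promoters are those of RefSeq. Alternatives were other scaling, filters, DESeq2 1.42.0, fewer libraries, the set as a block and length removal.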

Additional observations from a re-analysis of the deposited data

Results flagged for a closer look

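The change from 24 to 48 h differed between GFP low and GFP high cells by a test of the difference itself, upward in GFP low relative to GFP high cells for 3636 genes and downward for 3523. Among the 6 genes named for an upward difference were 4 replication histones, H4C11 (1.81 on the log2 scale), H4C4 (1.73), H2BC11 (1.72) and H3C8 (1.72). H4C11 was at 3.87 ± 0.746 and 5.01 ± 0.395 CPM in GFP low cells and at 7.76 ± 0.903 and 2.82 ± 0.265 CPM in GFP high cells at 24 and 48 h (SD, n = 3). Its rise in GFP low cells, 0.37, did not pass the test with the length trend removed (0.11), without the unnumbered 24 h library (0.22) or without the second 48 h library (0.30). The other 2 were the globin gene HBD, with a difference of 2.06, and MLC1, with 1.88.

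The 6 genes named for a downward difference were AHNAK (-2.50), THSD7B (-2.17), OVGP1 (-1.84), MST1 (-1.54), CFAP43 (-1.45) and DNMT3A (-1.35). All but AHNAK averaged under 2 CPM over the 6 GFP low libraries. OVGP1 changed little in GFP low cells (-0.22, adjusted p = 0.368, edgeR) and rose by 1.62 in GFP high cells, and THSD7B was at -0.95 and 1.22. The difference for DNMT3A did not pass the test without set 2 of GFP high cells at 48 h (-1.08, adjusted p = 0.12, edgeR).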

How the results depend on the processing

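Counts of called genes over the whole table stayed within 1.5 times under every alternative run, while 72 of 1232 list counts moved farther, 13 of them among 798 from lists with a count of 5 or more. With the library set as a replicate block, which pairs libraries, 9440 genes passed in GFP low cells and 8462 for the difference between fractions. DESeq2 called 7699 and 6539, a fit without a filter 8039 and 6786, and fits with 1 library left out 7683 to 7917 and 6683 to 6982. Under the block ACTB (-0.16) and MT-CO1 (-0.22) kept their size of change and did not pass (adjusted p = 0.127 for each, edgeR), while PHF10 and BRD9 passed; no other named gene changed its call under it. The exon length trend, as a rank correlation, was -0.475 at a mean of 10 CPM or more, -0.425 for protein-coding genes and -0.390 to -0.375 with 1 library left out.

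Some small changes turned sign. With the length trend removed BCL11A was at 0.012, BRD9 at 0.075 and SMARCE1 at 0.13, and with the block added at 0.0093, 0.070 and 0.13. With 1 library left out DPF3 lay at -0.29 to 0.012, SMARCD3 at -0.26 to 0.19 and SMARCE1 at -0.051 to 0.00015. Of 2699 values of named genes, 2638 kept direction and call, 40 lost and 10 gained the call and 11 turned sign. BCL7A lost its call without the first or unnumbered 24 h library or the second 48 h library (0.06 to 0.08), and BCL7C in 9 alternatives, length removal and DESeq2 among them (0.19 to 0.31). CD3D lost it without the unnumbered 24 h (0.52) or second 48 h library (0.48), and SS18L1 without the first 48 h library (-0.12). Depth limits genes under about 1 CPM.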
